A study of Rattus norvegicus with 2 samples.

Results

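The 10 genes described here belong to bone morphogenetic protein (BMP) signalling: the inhibitor of DNA binding genes Id1, Id2, Id3 and Id4, the inhibitory SMAD gene Smad6, the ligand genes Bmp2 and Bmp4, the receptor gene Bmpr1a, and the genes Bambi and Grem1, whose products restrain the pathway. They were chosen by name, with earlier results of these data known. All 10 were found among the 18171 genes measured, each through 1 array feature. Levels were measured in single colonies No.8 and No.4 of C6, a rat glioma cell line, with 1 whole-transcript array per colony. Both titles call the colony undifferentiated, and no genotype or other agent separates the colonies. Both carry the same protocol text, growth with 10% serum and treatment with CHIR99021, an inhibitor of the kinase GSK3, at 20 µM and forskolin, which raises cyclic AMP, at 100 µM for 35 days. The labels do not settle whether these RNA samples came before or after that treatment. Each colony stands for itself only, there are no replicates, and no test or p-value is given.

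BMP ligands bind paired type I and type II serine/threonine kinase receptors, which phosphorylate SMAD1, SMAD5 and SMAD9. These enter the nucleus with SMAD4 and switch on target genes, among which the Id genes and the feedback inhibitor Smad6 are common examples. ID proteins have a helix-loop-helix domain but no DNA-binding region, and they hold E proteins away from lineage factors. In the nervous system BMP signalling is known for favouring astrocytes over oligodendrocytes, and in glioma cells it has been studied as a signal that promotes astrocytic differentiation.

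In colony No.8, Id3, Bambi and Id1 were lower than in colony No.4, whereas Bmpr1a and Smad6 were somewhat higher and Id4 lay close to its level in No.4. Id2, Bmp2 and Bmp4 stayed below the middle of the value range in both colonies. Of the 10 genes, 7 were past the floor, meaning a level of at least 4.33, the median of all values, in at least 1 colony. Only Id3 among these 7 was at least 2-fold apart, and it was lower in No.8. Over all 11070 genes past the floor, 5.47% differed by 2-fold or more and 2.57% did so with the lower level in No.8, so 1 of 7 is too few to read as a departure from that share.

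The bases before the RefSeq start of the 3 genes that were lowest in No.8 relative to No.4 are shown because BMP, Wnt and cyclic AMP signals reach such genes partly through short DNA motifs. Each line gives 250 bases of assembly GRCr8, read 5′ to 3′ on the gene's own strand. Capitals mark matches on either strand to any of 5 motifs. The first is GGCGCC, known from BMP-responsive elements. The second is CAGAC, which holds a SMAD box. The third is TGACG, the half-site of cyclic AMP response elements. The others are ATCAAAG, bound by TCF and LEF factors in Wnt signalling, and TATAA, which resembles the TATA box of core promoters.
Id1, chr3:161671314-161671563, plus strand: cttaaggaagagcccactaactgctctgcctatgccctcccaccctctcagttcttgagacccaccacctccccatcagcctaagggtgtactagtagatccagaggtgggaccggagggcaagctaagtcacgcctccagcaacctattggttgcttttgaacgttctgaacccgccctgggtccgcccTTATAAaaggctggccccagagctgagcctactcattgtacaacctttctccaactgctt
Id3, chr5:153656041-153656290, plus strand: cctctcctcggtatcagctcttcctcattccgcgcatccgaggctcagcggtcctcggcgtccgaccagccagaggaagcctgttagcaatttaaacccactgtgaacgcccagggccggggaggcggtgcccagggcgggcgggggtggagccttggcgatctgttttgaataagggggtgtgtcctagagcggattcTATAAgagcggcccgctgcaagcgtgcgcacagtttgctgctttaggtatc
Bambi, chr17:58821004-58821253, minus strand: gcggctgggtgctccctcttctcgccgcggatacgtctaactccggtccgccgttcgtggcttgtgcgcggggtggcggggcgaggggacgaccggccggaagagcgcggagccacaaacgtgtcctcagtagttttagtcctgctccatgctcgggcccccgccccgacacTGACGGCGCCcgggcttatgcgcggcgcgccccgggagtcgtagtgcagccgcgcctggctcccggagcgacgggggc

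In the Id1 window the only matches were 2 overlapping TATA-like ones, the first beginning 60 bases before the start, and in the Id3 window a single one began 51 bases before it. The Bambi window held TGACG beginning 78 bases and GGCGCC beginning 74 bases before the start, with 1 base shared between them. Of all 33469 RefSeq promoter windows of this length, 24.0% held TATAA, 18.2% TGACG, 8.69% GGCGCC, 42.9% CAGAC and 3.15% ATCAAAG. Over the 15973 windows of measured genes these shares were 20.1%, 21.8%, 12.8%, 41.9% and 2.69%. Windows were matched by gene ID for 8 of the 10 genes, all but Bmp2 and Smad6. Among these 8, GGCGCC was found for Bambi and Grem1, CAGAC for Bmp4, ATCAAAG for Bmpr1a and TATAA for Id1, Id3, Bmp4 and Bmpr1a, while the windows of Id2 and Id4 held none of the 5 motifs. GC content was 54.8% in the Id1 window, 61.2% for Id3 and 72.4% for Bambi, against a median of 51.2% over all windows. The Bmpr1a window had 28.4%, and its TATAA matches began 232 and 231 bases before the start. These matches are letters in a short window, and sites farther away were not searched.

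The 3 ID genes past the floor were all lower in No.8, by different amounts. Id3 was at 6.19 in colony No.8, against 7.28 in colony No.4 (log2 level), a difference of -1.09 or 2.13-fold lower in No.8. Id1 was at 6.40 in No.8, against 7.15 in No.4, a difference of -0.75 or 1.68-fold lower in No.8. Id4 was at 7.46 in No.8, against 7.69 in No.4, a difference of -0.23. Id2 was at 4.01 in No.8, against 3.89 in No.4, below the floor in both, so no fold is given for it. The differences of Id1 and Id3 were thus larger in size than that of Id4, and Id2 gave no measurable contrast. In RNA from a whole colony, fewer cells that express a gene and less of its RNA per cell cannot be told apart.

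Set among single genes past the floor, the Id3 difference was low: 220 of 11070 genes (1.99%) had a lower one. For Id1 these were 546 genes (4.93%), and for Id4 2685 genes (24.3%). For all genes past the floor, the middle 50% spanned -0.22 to 0.30 around a median of 0.04. Id4 was therefore at the edge of that middle range, and Id1 and Id3 were well below it. Without replicate arrays it is not known whether Id1, Id3 and Id4 differ from each other in this respect.

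**Figure D1:**
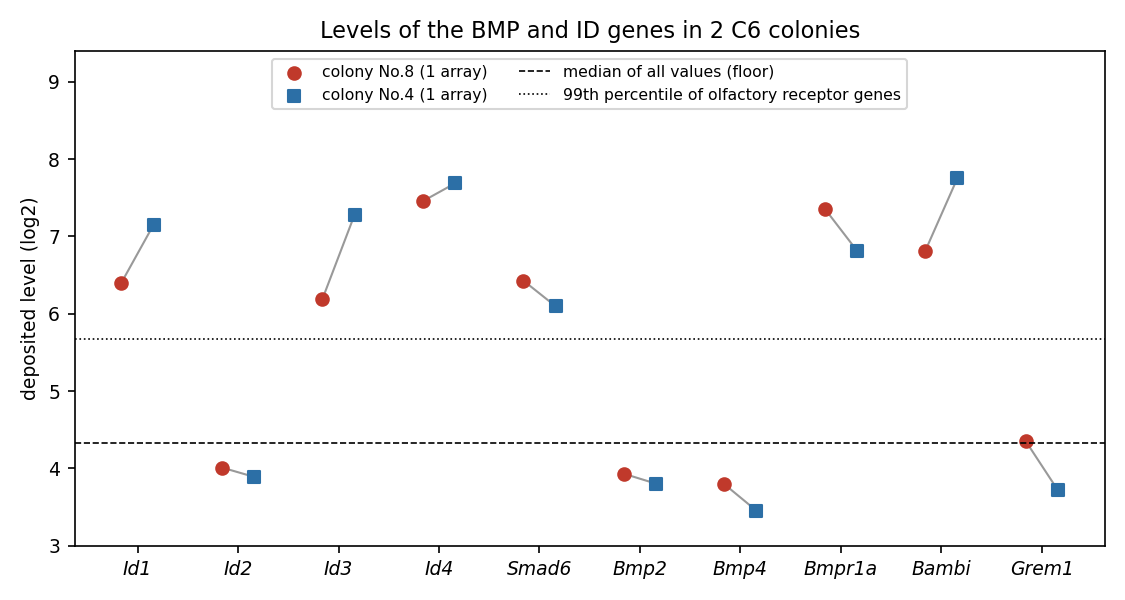
Deposited log2 levels of the 10 genes in colony No.8 (red circles, left of each pair) and colony No.4 (blue squares, right), 1 array each, with dashed and dotted lines at the floor of 4.33 and at 5.67, the 99th percentile of olfactory receptor genes. Id1, Id3 and Bambi are lower in No.8 with both levels above 5.67, while both levels of Id2, Bmp2 and Bmp4 are below the floor.

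Smad6, which encodes an inhibitory SMAD that is itself induced by BMP signals, was slightly higher in No.8. It was at 6.43 in colony No.8, against 6.10 in colony No.4, a difference of 0.33 or 1.26-fold higher in No.8. Of the genes past the floor, 40.5% differed by more than Smad6 in either direction. The slight excess in No.8 is thus of a size that many genes showed.

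The 2 ligand genes were dim in both colonies. Bmp2 was at 3.93 in No.8, against 3.80 in No.4, and Bmp4 was at 3.79 in No.8, against 3.45 in No.4. All 4 levels were under the floor, and no detection call separates such levels from background, so nothing can be said of a difference in either ligand. Olfactory receptor genes, silent in most tissues other than the nose and used here as a guide to background, reached 5.67 at their 99th percentile.

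Bmpr1a, a type I receptor for BMP2 and BMP4, was at 7.36 in colony No.8, against 6.81 in colony No.4. The difference was 0.54, or 1.46-fold higher in No.8, and 20.2% of genes past the floor differed by more. Both levels were above the 99th percentile of olfactory receptor genes. Bmpr1a thus differed in the direction opposite to Id1 and Id3.

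Bambi encodes a pseudoreceptor that resembles type I receptors but lacks the kinase domain, and it is known as a target of both BMP and Wnt signals. It was at 6.81 in colony No.8, against 7.75 in colony No.4, a difference of -0.94 or 1.92-fold lower in No.8. Only 330 of the 11070 genes past the floor (2.98%) had a lower difference. Bambi was therefore just short of 2-fold lower in No.8.

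Grem1, which encodes the secreted BMP antagonist gremlin 1, was at 4.35 in No.8, against 3.72 in No.4. It passed the floor only through the No.8 level, and only by 0.02. The difference of 0.63 in deposited values shrank to that 0.02 when the No.4 level was raised to the floor. Gremlin 1 was thus near background in both colonies.

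At a smaller size of 1.5-fold, 3 of the 7 genes past the floor were lower in No.8 (Id1, Id3 and Bambi) and 1, Grem1, was higher. Grem1 passed the floor only through its No.8 level and is below the floor in No.4, so its place in this count is no support for a difference. The matching shares over all genes past the floor were 7.93% lower and 9.87% higher in No.8. The 6 genes with both levels above the floor all had their brighter level between 6 and 8, a range picked after their values were seen. Among the 4823 genes in that range, 2.76% were lower in No.8 by 2-fold or more and 8.56% by 1.5-fold or more. The median difference over all 10 genes was 0.12 and over the 7 past the floor -0.23, against 0.03 over all measured genes and 0.04 over all genes past the floor. The sign of the median thus turned with the inclusion of the 3 dim genes, and of the 7 past the floor 4 were lower and 3 higher in No.8.

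The direction of each of the 6 genes measured above the floor in both colonies was unchanged under centring, quantile normalization and a loess on mean level. These left the median difference over all genes at 0.00, 0.04 and -0.005, against 0.03 before. Such shifts are small beside the smallest of the 6 differences, -0.23 for Id4, so the kept signs say little. Id3 ranged from -1.14 to -1.08 over these scalings, Bambi from -0.98 to -0.94 and Id1 from -0.80 to -0.75. Adding 64 on the linear scale, which shrinks the differences of dim genes, brought Id3 to -0.68, so that it no longer reached 2-fold.

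**Figure D2:**
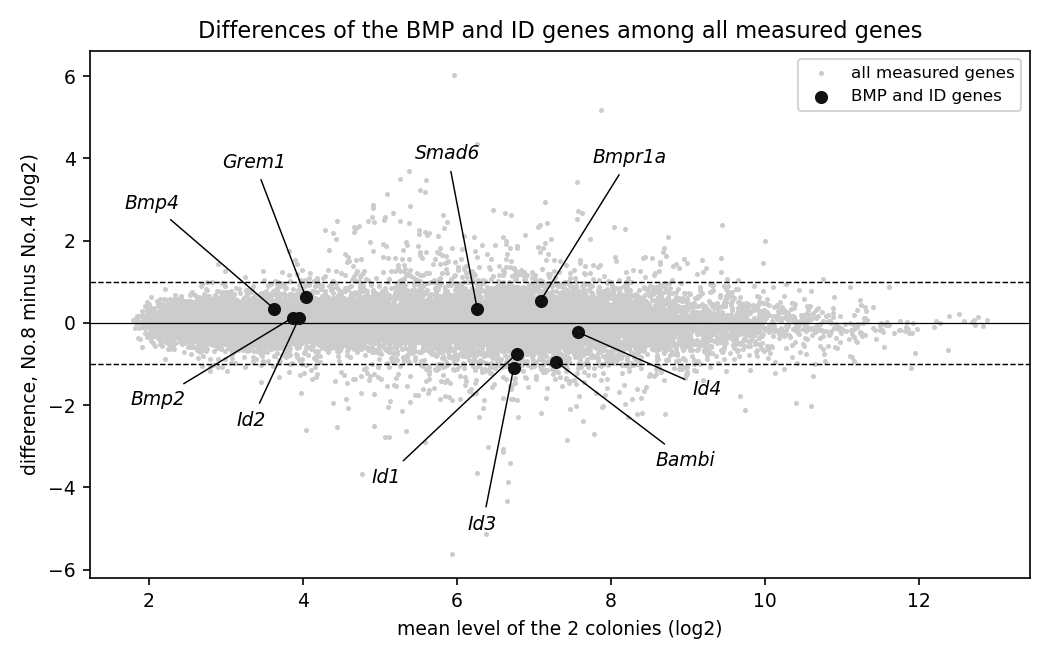
Difference between the colonies (No.8 minus No.4, log2) against the mean level of both arrays (log2) for all 18171 measured genes in grey and the 10 genes in black, with dashed lines at 2-fold. Id3 lies just past the lower dashed line at -1.09, with Bambi at -0.94 and Id1 at -0.75 just inside it, and no black point reaches the upper line.

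Further genes of the pathway were taken from lists by role, and counts below leave out the 10 genes. Of 13 other BMP family ligand genes measured, 3 were past the floor and 0 of these were 2-fold apart. Bmp7, a BMP ligand of developing kidney and brain, was at 9.09 in No.8, against 9.75 in No.4, a difference of -0.66. Gdf11, a related ligand that signals mainly through activin-type SMADs, was at 7.33 in No.8, against 6.49 in No.4, a difference of 0.84. Bmp8a was at 4.21 in No.8, against 4.69 in No.4, near background. Of the ligand genes with both levels past 5.67, Bmp7 was thus lower in No.8 and Gdf11 higher.

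Among 9 other receptor and co-receptor genes measured, 6 were past the floor, 3 higher and 3 lower in No.8, and 0 were 2-fold apart. Acvr1, another type I receptor for BMPs, was at 7.89 in No.8, against 7.28 in No.4, a difference of 0.61 close to that of Bmpr1a. Bmpr2, the type II receptor, was at 8.78 in No.8, against 8.51 in No.4. Rgma, a BMP co-receptor, was at 6.06 in No.8, against 6.40 in No.4, and the related co-receptor gene Hjv was at 4.78 in No.8, against 4.47 in No.4, near background. Bmpr1b, the other BMPR1-type receptor gene, was below the floor in both colonies (3.29 in No.8 and 3.40 in No.4).

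Of 12 other secreted antagonist and modulator genes past the floor, 9 were higher and 3 lower in No.8, and 2 were at least 2-fold higher, Fst and Fstl3. Over all 11070 genes past the floor, 5891 were higher and 5034 lower in No.8. The median difference of the 12 genes was 0.15, against 0.04 over all genes past the floor. Fst and Fstl3 both encode follistatin-type proteins that bind activins most tightly and some BMPs. Fstl3 was at 6.62 in No.8, against 4.98 in No.4, 3.13-fold higher in No.8. Counted from 5.67 at the least, it was at least 1.93-fold higher. Fst was at 8.60 in No.8, against 5.67 in No.4. Nbl1, a secreted antagonist of the same family as gremlin 1, went the other way at 6.31 in No.8, against 6.86 in No.4. The classical antagonist noggin was below the floor, with Nog at 3.52 in both colonies. Chordin was near background, with Chrd at 4.15 in No.8, against 4.42 in No.4. Other genes of this list were bright in both colonies. The chordin-like gene Chrdl1 was at 9.51 in No.8, against 9.29 in No.4. Crim1 was at 9.23 in No.8, against 8.72 in No.4, and Twsg1 at 8.05 in No.8, against 7.92 in No.4. The share at least 2-fold higher in No.8 was 2.91% over all genes past the floor.

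Most SMAD and SMAD regulator genes were lower in colony No.8, mostly by less than 2-fold. Of the 12 past the floor without Smad6, 10 were lower and 2 higher in No.8, with a median difference of -0.41. Over all genes past the floor 45.5% were lower and the median was 0.04. Smad7, the other inhibitory SMAD, was at 5.35 in No.8, against 6.37 in No.4, a difference of -1.02, and 1 of the 12 genes was thus 2-fold lower. The fold is 2.03 in deposited values and at least 1.63 counted from 5.67. Smad6 and Smad7 therefore differed in opposite directions. Smurf2, a ubiquitin ligase that acts on SMADs and receptors, was at 7.75 in No.8, against 8.53 in No.4, a difference of -0.78. Smad1, a BMP-regulated SMAD, was at 7.13 in No.8, against 7.79 in No.4, a difference of -0.66, whereas Smad5, which acts beside it, was at 8.28 in No.8, against 8.34 in No.4. Ski, a co-repressor of SMADs, went the other way at 7.04 in No.8, against 6.16 in No.4.

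Among other BMP target genes, 5 of 13 past the floor were lower and 8 higher in No.8, near the 45.5% lower over all genes past the floor. At least 2-fold lower in No.8 were 2 of the 13, Smad7 and the homeobox gene Msx2, where 2.57% of all genes past the floor were, and neither reached 2-fold counted from 5.67. Msx2 was at 4.74 in No.8, against 6.03 in No.4, a difference of -1.28, or at least 1.28-fold counted from 5.67. Runx2, a transcription factor of bone, was at 8.26 in No.8, against 9.16 in No.4, a difference of -0.90. Opposite to these were the repressor gene Zeb2, at 9.02 in No.8, against 8.21 in No.4, and the T-box gene Tbx2, at 7.82 in No.8, against 7.03 in No.4. Of the 8 higher, Atoh8, Gata2, Msx1 and Sp7 stayed under 5.67 in both colonies, as did Dlx3 of the 5 lower. The split and the median over the 13 genes, 0.09, thus rest partly on genes near background.

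The helix-loop-helix genes whose products ID proteins bind or oppose had 9 of 15 measured members past the floor, 5 higher and 4 lower in No.8. Over all genes past the floor 45.5% were lower. The E protein genes, whose products are the direct partners of ID proteins, differed little. Tcf3 was at 7.67 in No.8, against 7.46 in No.4, Tcf4 at 8.52 in No.8, against 8.38 in No.4, and Tcf12 at 8.93 in No.8, against 8.79 in No.4. The differences of these E protein genes, 0.21, 0.14 and 0.14, were smaller in size than those of Id1 and Id3. At least 2-fold apart were Hes1, higher in No.8, and Olig2, lower there, as were 5.47% of all genes past the floor in either direction. Hes1, a repressor downstream of Notch, was at 9.55 in No.8, against 8.13 in No.4. The oligodendrocyte lineage gene Olig2 was at 4.22 in No.8, against 6.36 in No.4. Olig2 was below the floor in No.8, and counted from 5.67 it was at least 1.61-fold lower there. Counted from 5.67, Fst and Hes1 were the list genes outside the 10 that still reached 2-fold. Olig1 was at 5.40 in No.8, against 5.92 in No.4.

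**Figure D3:**
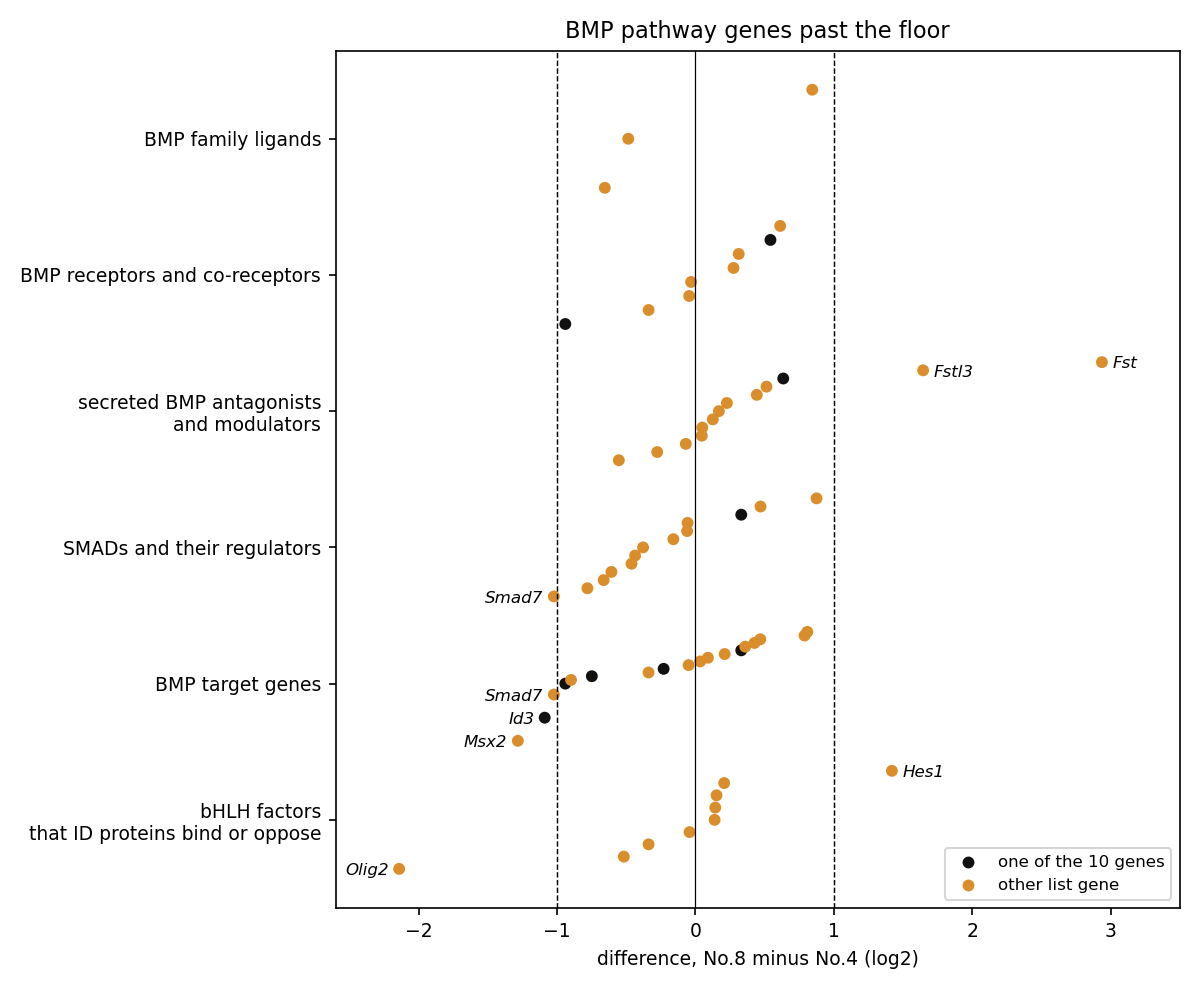
Difference between the colonies (No.8 minus No.4, log2) of every gene past the floor in 6 BMP pathway lists, with the 10 genes in black, other list genes in orange, dashed lines at 2-fold and names for genes past it (Smad7 is in 2 lists; height within a row only spreads the points). The SMAD row lies mostly left of 0, with 10 of its 12 orange points lower in No.8, and the antagonist row reaches 2.94 at Fst.

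The labelled cell type was checked against markers. Of 7 glial and progenitor markers, Vim, Nes, S100b and Sox2 were past 5.67 in both colonies. Sox2 was at 8.44 in No.8, against 9.08 in No.4, a difference of -0.64. Gfap was at 5.17 in No.8, against 4.11 in No.4, and the astrocyte genes Slc1a3 and Sox9 were below the floor in both. Of the markers of other cell types, 0 of 6 for microglia, 1 of 5 for neurons and 1 of 4 for endothelium were past the floor. So were 2 of 3 for smooth muscle and pericytes, 3 of 5 for fibroblasts, and 11070 of all 18171 genes. Past 5.67 in at least 1 colony were 0 for microglia, 0 for neurons and 0 for smooth muscle and pericytes. For endothelium this number was 1 and for fibroblasts 2. The endothelial one in both counts was Tek, at 5.97 in No.8, against 4.84 in No.4, a difference of 1.13. Past the floor in the list for fibroblasts and mesenchyme were Tbx18, Pdgfra and Col1a2. Tbx18, at 4.75 in No.8, against 6.37 in No.4, was lower in No.8. Pdgfra, at 9.53 in No.8, against 10.24 in No.4, was lower too. Col1a2, at 5.06 in No.8, against 4.57 in No.4, was higher in No.8. Which cells the Pdgfra RNA came from was not tested. The summed log2 level of the 5 fibroblast markers was 24.8 in No.8, against 26.2 in No.4, with Dcn and Lum below the floor in both. In No.8 and No.4 the sums were 52.8 and 51.7 for the glial markers, 17.5 and 16.4 for endothelium and 19.4 and 19.1 for neurons. For smooth muscle and pericytes they were 12.9 and 12.5, and for microglia 19.2 and 19.4. A single gene can shift such a sum, as with the differences of 1.05 for Gfap, 1.13 for Tek and -1.62 for Tbx18. The sums also count markers below the floor, so they are no measure of cell content. The part of Tek, Sox2 and the fibroblast markers in the differences of the 10 genes was not tested. The arrays had medians of 4.31 in No.8 and 4.34 in No.4.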

How the data were processed

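Total RNA from each colony was labelled with biotin after a whole-transcript GeneChip kit, per the labels' protocols. The deposited table holds 1 value per feature and array for 36685 features. The deposited values were used unchanged as log2 levels. The scale is stated by no label or header, and base 2 was inferred because the values reach 13.3, more than other log bases allow for a 16-bit scanner. The sources used here name no software, background correction or normalization. Quartiles nearly matched between arrays, so no further scaling was applied, and with 1 array per colony precision is limited by their number.

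Features with exactly 1 gene symbol in the platform annotation (18511 features; 575 had several symbols and 17599 none) were kept, and the feature with the highest mean stood for a gene. Genes and lists were chosen with earlier results of these data known. Differences are No.8 minus No.4. The names printed are the 10 genes, up to 3 other genes per list with the largest differences past the floor, all list genes past the floor and 2-fold apart, and cell type markers. Added after their values were seen were Bmpr2, Bmpr1b, Nog, Chrd, Chrdl1, Crim1, Twsg1, Smad1, Smad5, Zeb2 and Tbx2. So were Atoh8, Dlx3, Gata2, Msx1, Sp7, the E protein genes and the promoter motifs. Olfactory receptor genes were those with Or or Olr symbols except Olr1 (1184 genes). Promoters come from RefSeq, assembly GRCr8. Calculations used Python 3.11.15, pandas 2.3.3 and statsmodels 0.14.6 (lowess, span 0.3). The counting steps were tested on simulated data with planted differences larger than any of the 10 genes showed.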

Additional observations from a re-analysis of the deposited data

How the results depend on the processing

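With 1 array per colony, leaving out a replicate could not be done. No paired analysis was possible because the labels give no replicate numbers that the colonies share. The count of the 10 genes at least 2-fold apart (1, Id3) became 0 with an offset of 64 on the linear scale and 0 at 4-fold, and 4 at 1.5-fold. The count over the other genes of the pathway lists (6) became 2 with the offset, 2 with levels raised to 5.67 (the olfactory receptor guide to background), 16 at 1.5-fold and 2 at 4-fold. The count over all genes (606) became 167 with the offset, 380 with levels raised to 5.67, 1971 at 1.5-fold and 96 at 4-fold. The offset and the raised levels shrink differences of dim genes by construction. The median over the 10 genes, 0.12, was -0.49 over those past a floor at the upper quartile, which leaves out the dim genes, and -0.23 over those past the main floor, an alternative added after the data had been seen. Under the other alternatives these counts stayed within 1.5 times and the median lay between 0.00 and 0.14. The 10 genes have 1 feature each, so the choice of feature could not change their count or median. Leaving out the floor could not change the median over all 10. The median difference over all genes moved by less than 0.1 under every scaling tried. No detection call was used, so signal over background limits every level under 5.67.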
